A study of Homo sapiens with 12 samples.

Results

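Transcript levels of 8 genes of cholesterol synthesis and of its control by sterol regulatory element-binding proteins (SREBPs) were followed in HL60 cells treated with all-trans retinoic acid (ATRA), with a CDK4/6 inhibitor (CDK4/6i) or with both. HL60 is an established human acute myeloid leukemia cell line. The 8 genes were taken by name: 5 enzymes of the synthesis pathway (HMGCS1, FDFT1, SQLE, LSS and DHCR7), the genes for the SREBP proteins (SREBF1 and SREBF2) and INSIG1. They are 8 of the 59251 genes in the count table, and all 8 were among the 13318 genes with enough counts to be tested. RNA-Seq was done on 12 libraries in 4 groups of 3: non-treated cells, cells given 1 µM ATRA, cells given 1 µM palbociclib (the CDK4/6i), and cells given 1 µM of each drug (CDK4/6i+ATRA). All groups were collected at 48 h and grew in the same serum-containing medium, without a genetic change. The labels name the 3 libraries of a group as biological replicates of this single line.

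Cells make cholesterol from acetyl-CoA through mevalonate, squalene and lanosterol. The SREBP proteins are transcription factors held in the endoplasmic reticulum membrane. When membrane sterols are low, the escort protein SCAP carries them to the Golgi, where site-1 and site-2 proteases (MBTPS1 and MBTPS2) release the active part. When sterols are high, INSIG proteins retain the SCAP-SREBP complex in the endoplasmic reticulum, and INSIG1 is itself a well-known SREBP target. SREBP-2, the product of SREBF2, mainly drives cholesterol synthesis and uptake, and SREBP-1, the product of SREBF1, mainly drives fatty acid synthesis. Proliferating leukemia cells need cholesterol for new membrane.

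The 250 bases before the annotated start of 4 members are shown, because HMGCS1 and DHCR7 are enzymes at opposite ends of the pathway, SREBF2 encodes a regulator of both, and INSIG1 encodes a protein that holds the regulator back. They are RefSeq sequences of GRCh38.p14, written 5′ to 3′ on the strand of the gene. Capitals mark matches to TCACNCCAC (the letters of a sterol regulatory element), to CACGTG (an E-box) and to CCAAT, on either strand, so that a CCAAT on the opposite strand reads ATTGG. The HMGCS1 window is chr5:43313413-43313662 (minus strand), the DHCR7 window chr11:71448394-71448643 (minus strand), the SREBF2 window chr22:41832855-41833104 (plus strand) and the INSIG1 window chr7:155297628-155297877 (plus strand).
HMGCS1: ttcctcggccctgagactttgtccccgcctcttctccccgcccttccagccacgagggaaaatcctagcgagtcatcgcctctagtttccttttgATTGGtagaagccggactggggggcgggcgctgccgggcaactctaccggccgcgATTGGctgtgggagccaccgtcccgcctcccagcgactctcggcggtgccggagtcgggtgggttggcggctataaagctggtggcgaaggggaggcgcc
DHCR7: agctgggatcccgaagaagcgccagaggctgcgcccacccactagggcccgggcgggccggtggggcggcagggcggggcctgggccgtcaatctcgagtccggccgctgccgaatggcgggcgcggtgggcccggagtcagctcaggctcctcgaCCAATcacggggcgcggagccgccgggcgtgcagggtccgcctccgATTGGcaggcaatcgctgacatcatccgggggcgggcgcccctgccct
SREBF2: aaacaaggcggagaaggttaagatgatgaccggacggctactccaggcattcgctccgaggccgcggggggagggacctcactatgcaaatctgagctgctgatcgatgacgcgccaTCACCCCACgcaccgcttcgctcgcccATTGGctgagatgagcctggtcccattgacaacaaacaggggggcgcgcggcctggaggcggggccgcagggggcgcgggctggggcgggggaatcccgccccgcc
INSIG1: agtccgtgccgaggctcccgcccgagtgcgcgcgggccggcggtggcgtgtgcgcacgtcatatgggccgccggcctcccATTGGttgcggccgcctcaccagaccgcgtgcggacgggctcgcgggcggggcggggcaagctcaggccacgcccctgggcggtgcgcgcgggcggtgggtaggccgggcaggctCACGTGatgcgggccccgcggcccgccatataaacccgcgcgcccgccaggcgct

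Windows were found for 6 of the 8 members, with SQLE and FDFT1 unmatched. TCACNCCAC was in 1 of the 6, SREBF2, as TCACCCCAC from position -133 to -125 before the start, and in 0.883% of all 35116 promoter windows of the same length. CACGTG was in 1 of the 6, INSIG1, from -55 to -50, against 6.34% of all windows. CCAAT, the letters bound by NF-Y, was in 5 of the 6 (all but SREBF1), against 32% of all windows. GGGCGG, the GC box bound by SP1-type factors, was in all 6, against 42.6% of all windows. None of these motifs contains the letters of another, and a match says only that the letters are present.

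The libraries held 12230923 to 18679544 counts. Scaling factors from the trimmed mean of M-values (TMM) were 0.840 to 0.893 in CDK4/6i+ATRA libraries and 1.03 to 1.07 in the others. Levels are therefore given as TMM-scaled CPM (read counts per 1e+06 counts of the scaled library), and directions were checked with scaling by library size alone. With that scaling, the median change over all tested genes in CDK4/6i+ATRA-treated relative to non-treated cells moved from 0.02 to -0.25 on the log2 scale. A count of 3, taken as the floor, equals 0.161 to 0.245 CPM, and no member was at or below it in any library. Of the promyelocytic markers, MPO averaged 6517 CPM in non-treated, 292.8 in ATRA-treated, 3469 in CDK4/6i-treated and 27.96 in CDK4/6i+ATRA-treated cells, and CD33 averaged 93.9, 77.9, 118 and 99.8 CPM in the same order. ELANE, PRTN3 and AZU1 were listed at 0 throughout, so they check nothing here. Markers of other blood cells summed to 1.01 to 3.27 CPM. By chi-square per degree of freedom over genes, replicate pairs of a group differed by 1.81 to 6.22, and CDK4/6i+ATRA replicate 1 differed more from replicates 2 and 3 (4.45 and 6.22) than those did from each other (1.99). Without that library, no member changed direction or side of the threshold. Of the ATRA response genes, TGM2 averaged 0.0200 CPM in non-treated and 2024 in ATRA-treated cells, CD38 0.179 and 399.5 CPM and DHRS3 0.0401 and 126 CPM, while CYP26A1 stayed near 0 in every group. Summed MKI67, CCNA2 and MCM5, genes of dividing cells, spanned 1235 to 1267 CPM in non-treated, 1530 to 1556 in ATRA-treated, 138.3 to 143.9 in CDK4/6i-treated and 33.8 to 37.8 in CDK4/6i+ATRA-treated cells. MPO and the dividing-cell markers therefore moved with the groups compared below, and their part in the results was not tested.

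With CDK4/6i+ATRA, all 5 enzymes fell relative to non-treated cells, while INSIG1 rose 3.19-fold. SREBF1 rose by 0.40 on the log2 scale, a call that was lost with library size alone (log2 fold change 0.14, adjusted p = 0.102), and SREBF2 fell by 0.16. In the quasi-likelihood F test of edgeR, adjusted by the Benjamini-Hochberg method, 2 members were higher and 6 lower at 0.05. Of all tested genes 81.7% were called in this comparison, 41% higher and 40.7% lower. The median log2 fold change was -0.64 over the 8 members and 0.02 over all tested genes. ATRA alone gave 3 higher, 4 lower and 1 uncalled member (SREBF2), where 67.6% of all tested genes were called, 32.1% higher and 35.5% lower. CDK4/6i gave 0 higher, 5 lower and 3 uncalled members (HMGCS1, FDFT1 and LSS), where 56.2% were called, 28.3% higher and 27.9% lower. The libraries of the groups did not overlap for 7 members with ATRA, 5 with CDK4/6i and 8 with both, where 70.3%, 60.7% and 81.8% of all tested genes did not overlap. Since most genes of these cells were called, a count of called members is not in itself a result about these genes. In bulk RNA, a smaller number of cells expressing a gene and less of its RNA per cell cannot be told apart.

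**Figure D1:**
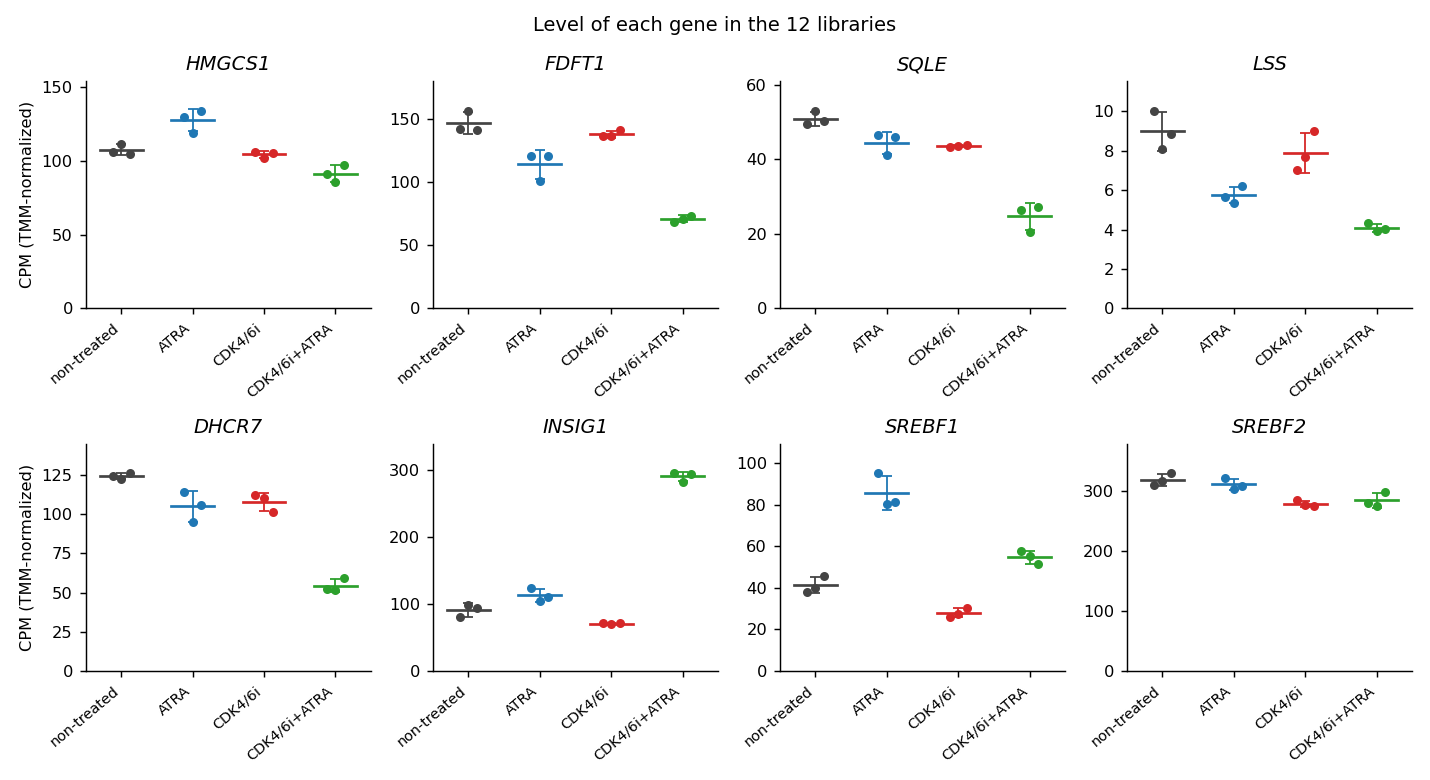
TMM-scaled CPM of the 8 genes in each of the 12 libraries (points) with the group mean ± SD (n = 3). INSIG1 stood at 282 to 294 CPM in CDK4/6i+ATRA libraries and at 69.3 to 123 elsewhere, while FDFT1, SQLE, LSS and DHCR7 were lowest in the CDK4/6i+ATRA libraries.

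HMGCS1 (chr5:43287470-43313412, minus strand, hg38) encodes HMG-CoA synthase of the mevalonate pathway. Its levels were 106, 112 and 105 CPM in non-treated, 129.97, 119 and 134 in ATRA-treated, 106, 102 and 105 in CDK4/6i-treated and 90.7, 85.7 and 97.3 in CDK4/6i+ATRA-treated cells. All ATRA libraries lay above and all CDK4/6i+ATRA libraries below the non-treated ones, and the CDK4/6i libraries overlapped with them. The log2 fold change was 0.25 (SE 0.0452, edgeR adjusted p = 3.29e-06) with ATRA and -0.23 (SE 0.0490, edgeR adjusted p = 3.05e-05) with CDK4/6i+ATRA. With CDK4/6i alone it was -0.04 (95% interval -0.13 to 0.05, edgeR adjusted p = 0.486). HMGCS1 was the enzyme among the 5 whose direction differed between the ATRA-treated and the CDK4/6i+ATRA-treated cells.

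FDFT1 (chr8:11795582-11839309, plus strand) encodes squalene synthase, the first enzyme committed to sterols. It measured 143, 157 and 141 CPM in non-treated, 121, 101 and 121 in ATRA-treated, 137, 137 and 141 in CDK4/6i-treated and 68.4, 71.1 and 73.6 in CDK4/6i+ATRA-treated cells. The CDK4/6i+ATRA libraries were below all others, the ATRA libraries lay between, and CDK4/6i and non-treated libraries overlapped. FDFT1 fell by 1.05 on the log2 scale with both drugs (SE 0.0539, edgeR adjusted p = 2.51e-23) and by 0.36 with ATRA (edgeR adjusted p = 5.52e-09). The change with CDK4/6i was -0.09 (95% interval -0.18 to 0.01, edgeR adjusted p = 0.115). SQLE (chr8:124998505-125022283, plus strand) encodes squalene epoxidase, a further rate-controlling step. It was at 49.6, 53.1 and 50.2 CPM in non-treated, 46.5, 41.1 and 45.9 in ATRA-treated, 43.3, 43.6 and 43.8 in CDK4/6i-treated and 26.3, 20.6 and 27.2 in CDK4/6i+ATRA-treated cells. The single-drug groups overlapped with each other and lay below the non-treated libraries, and the combined group was lower again. SQLE fell by 1.04 on the log2 scale with CDK4/6i+ATRA (SE 0.0738, edgeR adjusted p = 5.6e-18), by 0.23 with CDK4/6i (edgeR adjusted p = 0.00198) and by 0.20 with ATRA (edgeR adjusted p = 0.00585). Without ATRA replicate 2 the ATRA call was lost (log2 fold change -0.14, edgeR adjusted p = 0.0718).

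LSS (chr21:46188446-46228774, minus strand) encodes lanosterol synthase, which closes the sterol ring system, and was the lowest of the members. Its levels were 10.0, 8.09 and 8.84 CPM in non-treated, 5.67, 5.36 and 6.19 in ATRA-treated, 7.001, 7.70 and 9.01 in CDK4/6i-treated and 4.31, 3.92 and 4.05 in CDK4/6i+ATRA-treated cells. ATRA and CDK4/6i+ATRA libraries were below all non-treated ones, and CDK4/6i libraries overlapped with them. LSS fell by 1.14 on the log2 scale with both drugs (SE 0.159, edgeR adjusted p = 9.51e-09) and by 0.65 with ATRA (SE 0.137, edgeR adjusted p = 4.78e-05). With CDK4/6i it was at -0.19 (95% interval -0.45 to 0.07, edgeR adjusted p = 0.217). DHCR7 (chr11:71434411-71448393, minus strand) encodes a reductase of the last steps to cholesterol. It measured 124, 122 and 126 CPM in non-treated, 114, 94.9 and 106 in ATRA-treated, 112, 110.1 and 102 in CDK4/6i-treated and 52.3, 51.9 and 59.3 in CDK4/6i+ATRA-treated cells. The single-drug groups overlapped with each other below the non-treated libraries, and the combined group was far below both. DHCR7 fell by 1.19 on the log2 scale with CDK4/6i+ATRA (SE 0.0566, edgeR adjusted p = 9.86e-25), by 0.24 with ATRA (edgeR adjusted p = 2.28e-05) and by 0.20 with CDK4/6i (edgeR adjusted p = 3.69e-04).

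Each drug was also followed in the presence of the other. When ATRA was added to CDK4/6i, 2 members were higher, 5 lower and 1 uncalled, where 78.6% of all tested genes were called, 39.1% higher and 39.5% lower. When CDK4/6i was added to ATRA, 1 was higher and 7 were lower, where 69.8% were called, 36.9% higher and 32.8% lower. The libraries did not overlap for 7 and 8 members, against 78.9% and 71.9% of all tested genes. All 5 enzymes fell in both comparisons, by 0.19 (HMGCS1) to 0.98 (DHCR7) on the log2 scale when ATRA was added and by 0.48 (HMGCS1) to 0.94 (DHCR7) when CDK4/6i was added. Of all genes called, 49.8% and 53.0% were higher in these comparisons, and 36.7% and 31.6% with library size alone. The comparisons share the CDK4/6i+ATRA libraries.

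**Figure D2:**
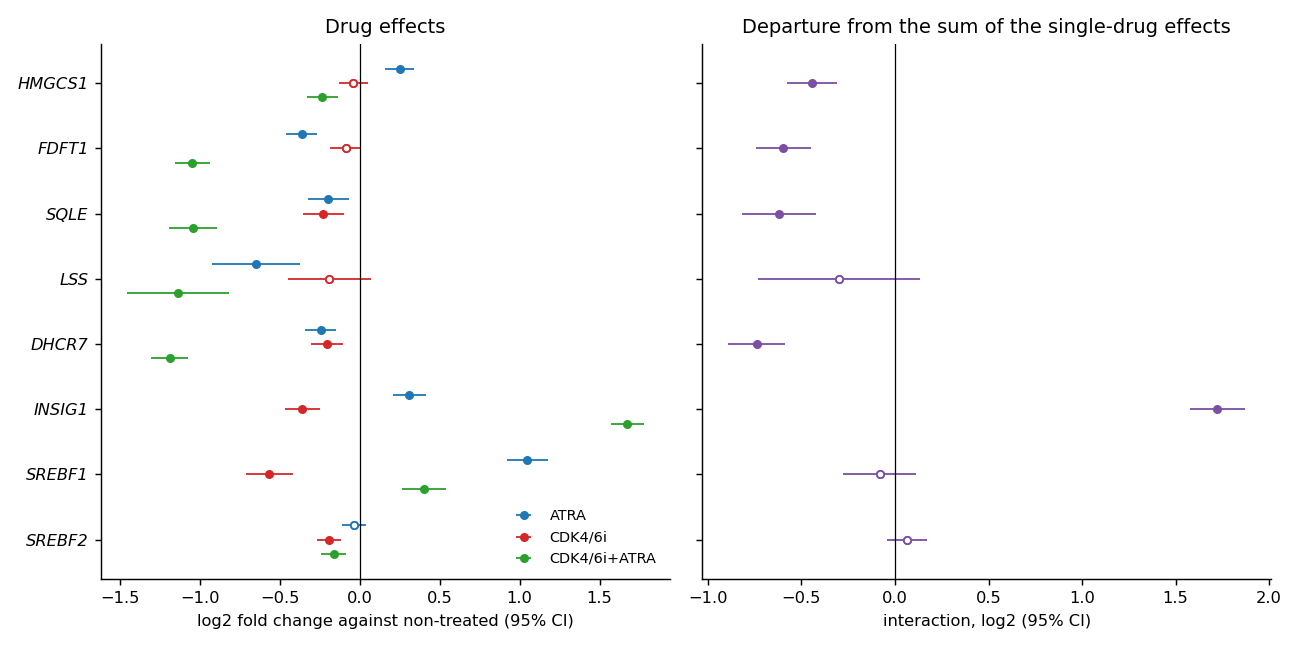
Log2 fold changes of the 8 genes in each treatment relative to non-treated cells, with 95% intervals (edgeR, n = 3 per group), filled where adjusted p passed 0.05 and open where it did not. In the left panel DHCR7, LSS, FDFT1 and SQLE lay between -1.19 and -1.04 with CDK4/6i+ATRA, and INSIG1 at 1.67. The right panel gives the interaction, with INSIG1 at 1.72.

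INSIG1 (chr7:155297878-155310235, plus strand), which encodes the sterol-dependent retention protein, moved opposite to the enzymes with both drugs. Its levels were 79.8, 99.0 and 93.7 CPM in non-treated, 123, 105 and 110.5 in ATRA-treated, 71.5, 69.3 and 71.4 in CDK4/6i-treated and 294, 282 and 294 in CDK4/6i+ATRA-treated cells. No groups overlapped, and their order was CDK4/6i, non-treated, ATRA and CDK4/6i+ATRA. The log2 fold change against non-treated cells was 0.31 with ATRA (edgeR adjusted p = 8.43e-07), -0.36 with CDK4/6i (edgeR adjusted p = 1.68e-07) and 1.67 with both (SE 0.0504, edgeR adjusted p = 3.67e-33). CDK4/6i lowered INSIG1 in the absence of ATRA and raised it by 1.36 on the log2 scale in its presence. ATRA raised it 4.10-fold when CDK4/6i was present.

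SREBF1 (chr17:17811334-17836986, minus strand) followed ATRA. It measured 38.2, 40.1 and 45.4 CPM in non-treated, 94.97, 80.2 and 81.1 in ATRA-treated, 26.03, 27.6 and 30.3 in CDK4/6i-treated and 57.5, 55.2 and 51.2 in CDK4/6i+ATRA-treated cells. The groups did not overlap, and both ATRA-containing groups were above both groups without ATRA. SREBF1 rose 2.07-fold with ATRA (log2 fold change 1.05, SE 0.0630, edgeR adjusted p = 2.72e-20) and fell by 0.56 on the log2 scale with CDK4/6i (edgeR adjusted p = 2.62e-09). ATRA in the presence of CDK4/6i raised it by 0.97 on the log2 scale. When CDK4/6i was added to ATRA, SREBF1 was at -0.65 (edgeR adjusted p = 1.17e-12). SREBF2 (chr22:41833105-41907305, plus strand) was the steadiest member. Its levels were 309, 317 and 329 CPM in non-treated, 322, 303 and 309 in ATRA-treated, 284, 277 and 276 in CDK4/6i-treated and 281, 274 and 299 in CDK4/6i+ATRA-treated cells. Both CDK4/6i-containing groups overlapped with each other and lay below the other two, which overlapped as well. SREBF2 fell by 0.19 on the log2 scale with CDK4/6i (edgeR adjusted p = 2.13e-05) and by 0.16 with both drugs (SE 0.0386, edgeR adjusted p = 1.79e-04). With ATRA its change was -0.03 (95% interval -0.11 to 0.04, edgeR adjusted p = 0.433), and 0.0066 with library size alone. When ATRA was added to CDK4/6i it was 0.03 (95% interval -0.05 to 0.11), and -0.25 with library size alone (edgeR adjusted p = 1.33e-07).

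The interaction term tested whether the log2 effect of both drugs departed from the sum of the single-drug log2 effects. It passed the threshold for 5 of the 8 members, 1 higher and 4 lower, where 51.4% of all tested genes were called, 24.5% higher and 27% lower. INSIG1 was 1.72 above that sum (SE 0.0735, edgeR adjusted p = 2.1e-25), at the 97.2 percentile of all tested genes. DHCR7 was at -0.74 (SE 0.0758, edgeR adjusted p = 8.38e-12), SQLE at -0.62 (SE 0.0985, edgeR adjusted p = 4.88e-07), FDFT1 at -0.60 (SE 0.0728, edgeR adjusted p = 1.07e-09) and HMGCS1 at -0.44 (SE 0.0666, edgeR adjusted p = 1.5e-07). In that order, these enzymes stood at the 17.4, 20.5, 21.1 and 26.6 percentile of all tested genes. For LSS the interaction was -0.30 (95% interval -0.73 to 0.13, edgeR adjusted p = 0.251), for SREBF1 -0.08 (-0.28 to 0.11) and for SREBF2 0.06 (-0.05 to 0.17). With library size alone all 8 members were called, with SREBF2 at -0.25, where 7436 of the 13318 tested genes were called, 1375 higher and 6061 lower. The share of interaction calls that were higher went from 47.5% to 18.5% over all genes.

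Ratios of raw counts within a library do not depend on scaling between libraries. INSIG1 counts were 0.207 ± 0.0195 (SD, n = 3) of the summed counts of the 5 enzymes in non-treated, 0.284 ± 0.0148 in ATRA-treated, 0.176 ± 0.00242 in CDK4/6i-treated and 1.18 ± 0.0509 in CDK4/6i+ATRA-treated cells. The last is 5.71 times the non-treated ratio. SREBF1 counts were 0.129 ± 0.00769 of SREBF2 counts in non-treated and 0.274 ± 0.0181 in ATRA-treated cells. They were 0.1004 ± 0.00908 in CDK4/6i-treated and 0.192 ± 0.0183 in CDK4/6i+ATRA-treated cells, so that the ratio was higher in both ATRA-containing groups. The summed enzymes over SREBF2 were 1.38 ± 0.0618 in non-treated, 1.28 ± 0.0758 in ATRA-treated, 1.44 ± 0.0163 in CDK4/6i-treated and 0.862 ± 0.0124 in CDK4/6i+ATRA-treated cells. Each of these 3 ratios separated CDK4/6i+ATRA from non-treated cells completely, with a two-sided exact permutation p = 0.1, the smallest that 3 against 3 libraries allow.

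**Figure D3:**
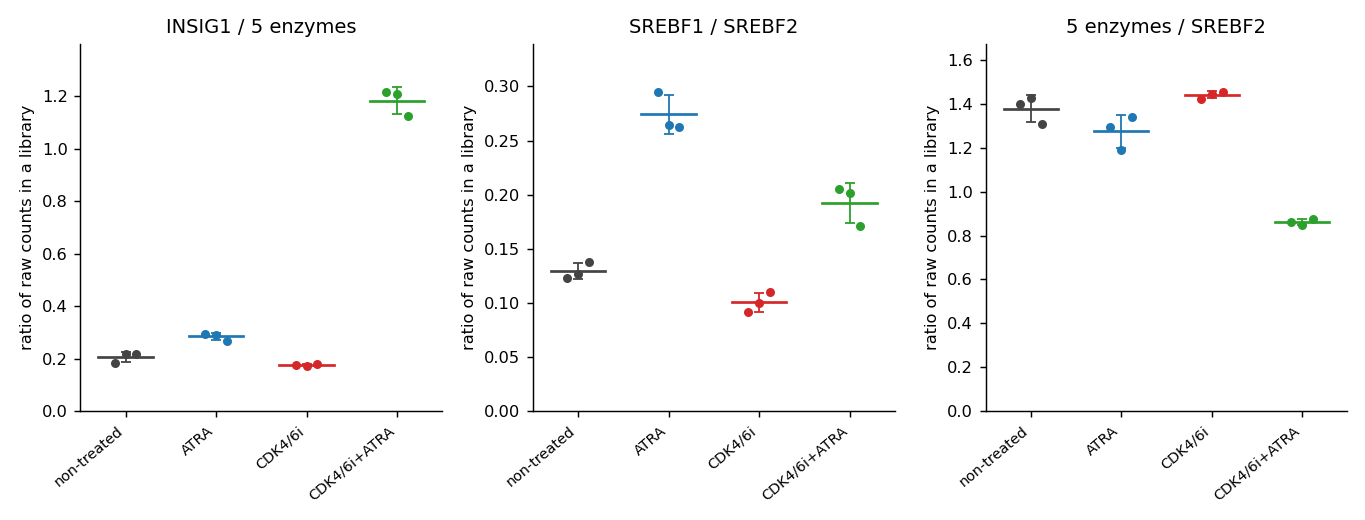
Ratios of raw counts within each library (points) with the group mean ± SD (n = 3). INSIG1 over the 5 enzymes rose from 0.207 in non-treated to 1.18 in CDK4/6i+ATRA-treated cells, and the 5 enzymes over SREBF2 went from 1.38 to 0.862.

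Levels were also set per kilobase, with all annotated exon parts of a gene on the primary chromosomes as its length. This length can exceed that of the transcript expressed, so the order of the genes depends on it. For SREBF2 it was 13334 bases, and SREBF2 had the highest CPM of the members in non-treated cells (319). In non-treated cells DHCR7 was highest at 45.02 CPM per kb, then FDFT1 at 34.97, INSIG1 at 29.5, SREBF2 at 23.9, HMGCS1 at 19.4, SQLE at 15.3, SREBF1 at 8.01 and LSS at 1.79. In CDK4/6i+ATRA-treated cells INSIG1 led at 94.2 CPM per kb, SREBF2 was at 21.3 and DHCR7 had gone to 19.7. FDFT1 and LSS are also annotated on an alternate or patch contig. With the exons of both contigs in the length, FDFT1 would be at 17.5 CPM per kb, below INSIG1, SREBF2 and HMGCS1, and LSS at 0.962, and reads placed on more than one contig could be missing from their levels. SREBF1 shares 120 exon bases with RAI1 on the opposite strand (9803 and 7115 counts over all libraries), and the strand setting of the counting is not given in the sources used here, so those reads cannot be told apart. SREBF2-AS1 (254 bases, 57 counts) and LOC105375592 (43 bases of INSIG1, 76 counts) overlap members but held few counts. LOC124905045 and SNORD159 at LSS had 0 counts, as had MIR33A at SREBF2 and MIR6777 at SREBF1, while MIR33B at SREBF1 had 1 and LOC105379243 at FDFT1 had 9.

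The synthesis pathway was examined next through 20 of its enzymes in 3 lists. GGPS1, on a branch away from sterols, is counted among them. With CDK4/6i+ATRA, 15 of the 20 fell, 4 rose and 1 did not pass the test, and their median was -0.92 on the log2 scale where that of all tested genes was 0.02. In that comparison the lower quartile of all tested genes was -0.93. Of all tested genes, 81.7% were called there, 41% higher and 40.7% lower. With ATRA 10 fell and 7 rose (median -0.20), where 35.5% of all tested genes were lower and 32.1% higher. With CDK4/6i 9 fell and 2, GGPS1 and TM7SF2, rose (median -0.18), where 27.9% were lower and 28.3% higher. Library size alone gave 16 lower and 2 higher, GGPS1 and LBR, with both drugs, where 6431 of the 13318 tested genes were lower and 4376 higher. The interaction was lower for 15 of the 20 and higher for SC5D (0.27, but -0.05 with library size alone), with a median of -0.46, where 27% of all tested genes were lower and 24.5% higher. The largest negative interactions were those of TM7SF2 (-1.67), which rose by 1.305 with CDK4/6i alone, and EBP (-1.34).

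**Figure D4:**
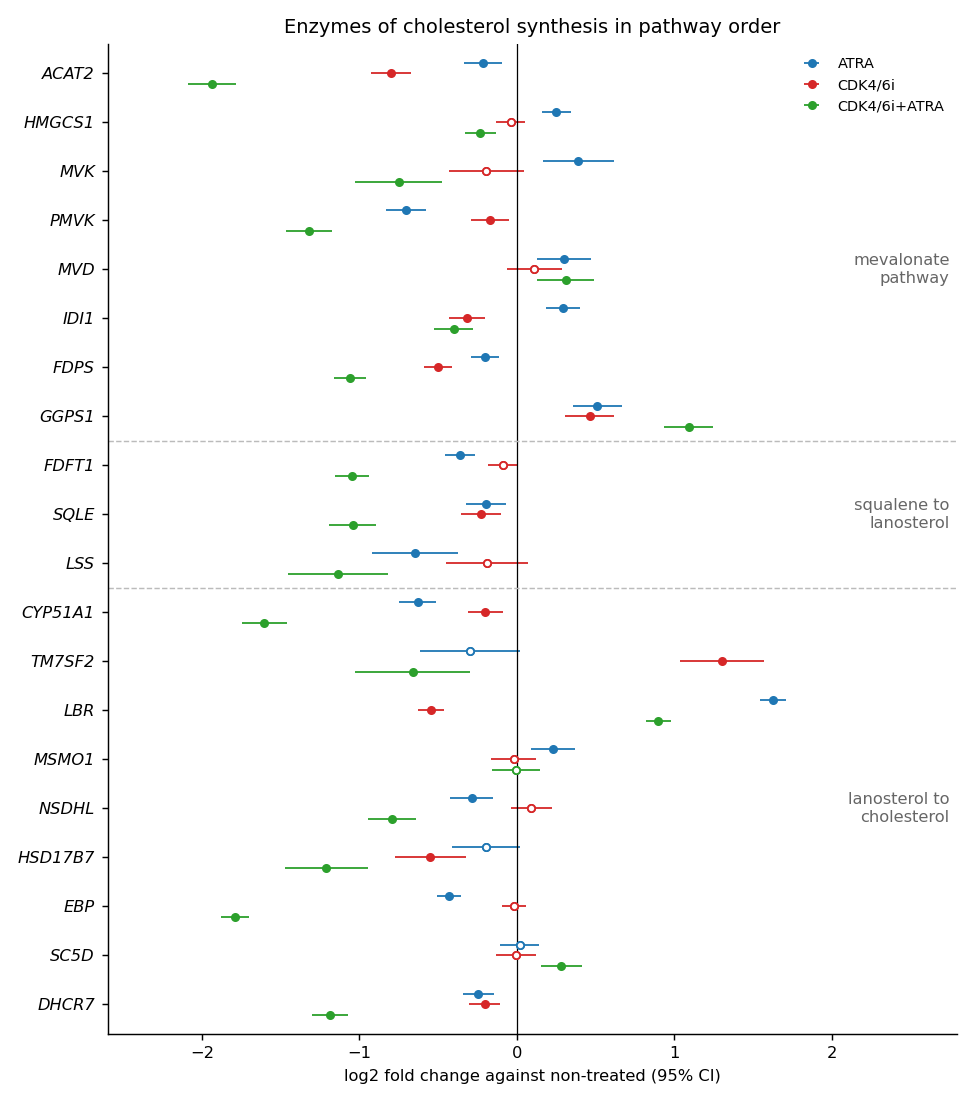
Log2 fold changes of the 20 synthesis enzymes in pathway order, by treatment against non-treated cells, with 95% intervals (edgeR, n = 3 per group). The CDK4/6i+ATRA values run from -1.94 (ACAT2) to 1.09 (GGPS1), and 15 of the 20 passed the threshold below 0.

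Among 8 genes of the mevalonate part, 6 fell and 2 rose with both drugs (median -0.58), where 40.7% of all tested genes were lower and 41% higher. ACAT2, the thiolase at the entry, averaged 72.4 ± 5.40 CPM in non-treated and 18.8 ± 2.55 in CDK4/6i+ATRA-treated cells (log2 fold change -1.94, SE 0.0763). It shares 454 exon bases with TCP1 on the opposite strand (9690 and 83448 counts over all libraries), GGPS1 shares 272 with ARID4B (4633 and 12027), IDI1 320 with WDR37 (9232 and 5278) and MVK 158 with MMAB (2307 and 2441), so their levels are uncertain where strand was not used in counting. PMVK (-1.32), FDPS (-1.06), MVK (-0.75) and IDI1 (-0.40) were also lower, beside -0.23 for the member HMGCS1. GGPS1, which leads to geranylgeranyl groups and not to sterols, rose from 17.2 ± 1.06 to 36.6 ± 1.18 CPM (log2 fold change 1.09, SE 0.0768). MVD was at 0.31, a call lost with library size alone (0.04, edgeR adjusted p = 0.665).

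All 3 genes of squalene and lanosterol synthesis, which are members, fell with both drugs (median -1.05), where 81.7% of all tested genes were called and 40.7% were lower. Of 9 genes from lanosterol to cholesterol, 6 fell, 2 rose and 1, MSMO1, was not called (-0.01, edgeR adjusted p = 0.944; with library size alone it was lower, at -0.27). EBP, the sterol isomerase, fell from 218 ± 5.97 to 62.9 ± 1.82 CPM (log2 fold change -1.79, SE 0.0450). CYP51A1, the lanosterol demethylase, fell from 62.9 ± 2.71 to 20.6 ± 2.17 CPM (-1.60, SE 0.0699). HSD17B7 (-1.21), NSDHL (-0.79) and TM7SF2 (-0.66) were lower as well. LBR, a sterol reductase that is also a lamin receptor, averaged 561 ± 10.8 CPM in non-treated, 1733 ± 29.5 in ATRA-treated and 1047 ± 11.5 in CDK4/6i+ATRA-treated cells, a log2 rise of 1.63 and 0.90. SC5D was at 0.28, a call lost with library size alone.

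Around the SREBP proteins, 3 of 7 genes rose and 4 fell with both drugs, about the split of all tested genes (41% higher and 40.7% lower). SCAP, the escort, went from 126 ± 4.76 to 82.7 ± 1.17 CPM (log2 fold change -0.61, SE 0.0453), and MBTPS1, the site-1 protease, from 185 ± 7.21 to 100.4 ± 3.25 CPM (-0.88, SE 0.0422). MBTPS2 was at -0.41. With ATRA alone SCAP was at -0.56 and MBTPS1 at -0.72, and with CDK4/6i alone they were at 0.14 and 0.28. When CDK4/6i was added to ATRA, SCAP was at -0.04 (edgeR adjusted p = 0.403; -0.35 and called with library size alone) and MBTPS1 at -0.16 (edgeR adjusted p = 0.00109). INSIG2, the second retention gene, was at 0.31 against 1.67 for INSIG1, and its call was lost with library size alone. Of 4 tested genes of sterol uptake and trafficking, 3 rose and 1, LIPA, was not called (median 1.92). STARD4, a sterol carrier protein, went from 10.503 ± 0.416 to 85.2 ± 8.30 CPM (log2 fold change 3.02, SE 0.0768), and its interaction was 1.63. NPC2 (2.45) and NPC1 (1.39), which export cholesterol from lysosomes, were higher too. NPC1 shares 396 exon bases with RMC1 on the opposite strand (9480 and 4737 counts), so the same uncertainty of strand applies. LIPA was at 0.02, and lower with library size alone (-0.24). INSIG1 and the synthesis enzymes are known as SREBP targets, and here INSIG1 rose while most of the enzymes fell. SREBP activity was not measured, and the cause of this difference was not tested.

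**Figure D5:**
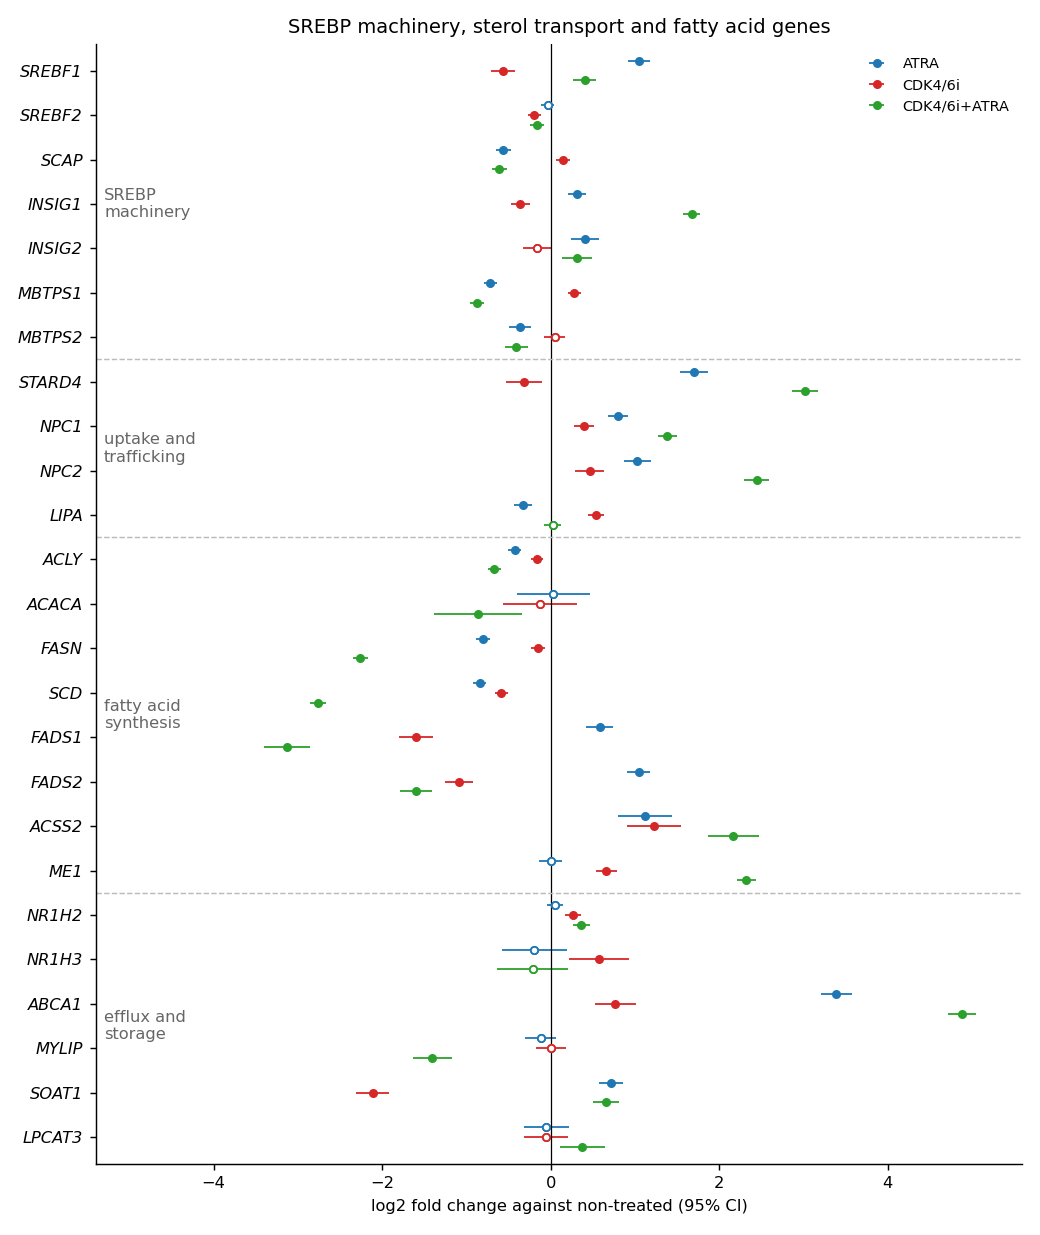
Log2 fold changes of the SREBP, uptake, fatty acid and efflux genes by treatment against non-treated cells, with 95% intervals (edgeR, n = 3 per group). With CDK4/6i+ATRA, ABCA1 was at 4.88 and STARD4 at 3.02, and FADS1 at -3.13.

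Of the SREBP-1 fatty acid targets, 6 of 8 tested genes fell and 2, ME1 and ACSS2, rose with both drugs (median -1.23), where 40.7% of all tested genes were lower and 41% higher. The largest fall was that of FADS1, a fatty acid desaturase, from 29.2 ± 1.93 to 3.30 ± 0.730 CPM (log2 fold change -3.13, SE 0.136). It shares 142 exon bases with FADS2 on the opposite strand (4340 and 9264 counts), so the same uncertainty of strand applies. ATRA alone raised FADS1 by 0.58 on the log2 scale, to 43.7 ± 6.39 CPM, and CDK4/6i alone left 9.67 ± 0.383 CPM. The largest rise was that of ME1, malic enzyme, from 31.2 ± 1.57 to 156 ± 10.2 CPM (2.32, SE 0.0570). SREBF1 was at 0.40 with both drugs (0.14 and not called with library size alone). It was at -0.56 with CDK4/6i alone and at -0.65 when CDK4/6i was added to ATRA. The part of SREBF1 in these changes was not tested. Of the efflux, esterification and LXR genes, 4 of 6 tested (ABCA1, SOAT1, NR1H2 and LPCAT3) rose, 1 fell and 1, NR1H3, was not called (median 0.37), beside the same shares of all tested genes. ABCA1, the cholesterol efflux pump, rose from 8.53 ± 1.54 to 254 ± 19.9 CPM (4.88, SE 0.0838), with 90.2 ± 12.3 CPM in ATRA-treated cells. MYLIP, a ubiquitin ligase induced by LXR, fell from 20.9 ± 3.26 to 7.88 ± 0.202 CPM (-1.41, SE 0.116). With library size alone, ABCA1 and SOAT1 were higher, MYLIP and NR1H3 lower, and NR1H2 and LPCAT3 not called. LPCAT3 shares 1506 exon bases with EMG1 on the opposite strand (1662 and 7531 counts), and its level is uncertain for the same reason.

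Across the 12 libraries, levels of the enzymes moved together to different degrees. Pearson's r of log2(CPM + 1) was 0.978 between SQLE and DHCR7 and 0.965 between FDFT1 and DHCR7, but 0.304 between HMGCS1 and LSS. INSIG1 and FDFT1 had r = -0.938. The 12 points fall into 4 treatment groups, so these values mostly describe group means. Among 9292 genes with at least 5 CPM on average, those most alike to the mean profile of the 5 enzymes were ZNF519 (r = 0.989), FAM98B (0.989) and LSM5 (0.987). For INSIG1 they were JUND (0.991), NETO2 (0.990) and DDX3X (0.989), for SREBF1 HPS3 (0.986), C2CD5 (0.983) and DLEU7 (0.982), and for SREBF2 BTBD6 (0.931), PIGC (0.916) and NSFL1C (0.913).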

How the data were processed

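Bulk RNA-Seq of 12 HL60 libraries was used. The authors prepared directional libraries and deposited raw counts per gene. The submitters' processing notes name Trimmomatic 0.33, STAR 2.7.11a and hg38, and the study's methods name RefSeq annotation and RSEM; the counts are whole numbers and the table has a featureCounts layout, so the counter is uncertain. Groups were taken from the sample titles. Counts were filtered with filterByExpr (13318 of 59251 genes), TMM-scaled and tested with edgeR 4.0.16 (quasi-likelihood F test, 1 fit over 4 groups, 8 residual degrees of freedom, common biological coefficient of variation 3.70%), with Benjamini-Hochberg adjustment over all tested genes, two-sided, at 0.05. CPM are TMM-scaled, with 1 added before log2 for correlations. No per-sample column was left unused. Alternatives were DESeq2 1.42.0, its size factors, library size alone, other count filters, a replicate block, fits of only the groups compared, and leaving out each library. The fitting scripts were tested on simulated data with 200 changed genes. There edgeR recovered 169 with 8 false calls for the interaction and 174 with 12 false calls for ATRA. Most genes were called in the real data, so the simulation does not cover that setting or the scaling of the CDK4/6i+ATRA libraries. Replicates measure the spread between cultures of 1 line. The 95% intervals are those of the edgeR fit and include the spread between replicates. The edgeR tests and intervals add prior degrees of freedom to the residual ones. The very small p-values therefore rest on estimates of the spread that are shared across genes. The floor of 3 counts covers counting error only. The members and 7 gene lists (52 genes, 48 tested) were chosen with earlier results of these data known; 3 of the tested genes are not reported here and were left out of the counts and medians of the lists. Genes outside the 8 were named where they passed the threshold in CDK4/6i+ATRA-treated relative to non-treated cells, except in the fatty acid and efflux lists, where only the largest rise and fall were named; for the members and the profile of the 5 enzymes, the 3 most correlated genes were named. MSMO1, LIPA, ACSS2, SOAT1, NR1H2, NR1H3 and LPCAT3 were named after their values were seen.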

Additional observations from a re-analysis of the deposited data

Results flagged for a closer look

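The effect of one drug differed with the presence of the other, by the interaction term (edgeR quasi-likelihood test, Benjamini-Hochberg adjusted), for 5 of the 8 members, where 51.4% of all tested genes were called. INSIG1 had an interaction of 1.72 on the log2 scale: ATRA changed it by 0.31 without and by 2.03 with CDK4/6i, and CDK4/6i changed it by -0.36 without and by 1.36 with ATRA. HMGCS1 had -0.44, with an ATRA effect of 0.25 without and -0.19 with CDK4/6i. DHCR7 had -0.74 (ATRA effect -0.24 and -0.98), SQLE -0.62 (-0.20 and -0.82) and FDFT1 -0.60 (-0.36 and -0.96). These directions held under every alternative run, including scaling by library size alone. No test of outlying libraries was run on the groups of 3.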

How the results depend on the processing

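Of 904 log2 fold changes of members under the alternatives, 892 kept their direction and side of the threshold, and of 226 counts of called genes 225 stayed within 1.5 times. Library size alone moved the called members of the interaction from 5 to 8, where all genes called went from 6852 to 7436 of the 13318 tested. LSS at -0.62 and SREBF1 at -0.40 were newly called there. That scaling ended the SREBF1 call with CDK4/6i+ATRA (0.14). It reversed SREBF2 with ATRA (0.0066), with ATRA added to CDK4/6i (-0.25) and in the interaction (-0.25). TMM factors were lower in CDK4/6i+ATRA libraries. SREBF2 also reversed with no count filter when ATRA was added to CDK4/6i (-0.071) and in the interaction (-0.022), with only the groups compared for ATRA (0.016), and without CDK4/6i+ATRA replicate 3 when ATRA was added to CDK4/6i (leaving out each library in turn gave -0.00998 to 0.0493), none of these past the threshold; the cause was not tested. FDFT1 with CDK4/6i was called at -0.09 with only the groups compared, and SQLE with ATRA lost its call without ATRA replicate 2 (-0.14). No shared effect of the replicate number was seen. Over 18 same-numbered pairs, deviations correlated at -0.114 to 0.0702, and 0 of 12 libraries correlated best with their own number. This cannot show whether samples of the same number were cultured or prepared together. With the replicate block, called members stayed at 7, 5 and 8 for ATRA, CDK4/6i and both drugs, each relative to non-treated cells, and at 5 for the interaction. Among the 8 members depth limits LSS most, with a lowest count of 44. Of the other genes named from the pathway lists, FADS1, NR1H3 and TM7SF2 went down to 30, 33 and 34. ZNF519, named for its profile, averaged only 0.985 CPM in CDK4/6i+ATRA-treated cells.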
